A study of Homo sapiens with 8 samples.

Results

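Transcripts of the amino acid response and of the cytosolic tRNA synthetases were compared between BT549 cells kept in suspension and BT549 cells attached to plastic. BT549 is a human triple-negative breast cancer line. The gene set holds 43 genes, chosen by name with earlier results of these data known, so counts over it are descriptions. A gene was followed where the array had a probe set annotated with its symbol alone. That was so for 41 of them, out of 18417 genes tested. GPT2 and CBS had no such probe set and are not analysed here. The suspended group is 4 cultures held for 24 h over poly-HEMA, a coating that prevents adhesion. The attached group is 4 cultures on ordinary plates, for which the labels give 24 h in the source name and growth fields and 48 h in the treatment field. If 48 h holds, time in culture and attachment cannot be told apart. Both groups are the same unmodified line in RPMI with 10% serum and insulin, and the series describes the cultures as biological replicates, so p-values speak to cultures of 1 line. Values are log2 array signals, 1 array per culture.

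When a cell runs short of an amino acid, uncharged tRNA activates the kinase GCN2, which phosphorylates the translation factor eIF2. Most protein synthesis then slows, while the mRNA of the transcription factor ATF4 is translated more, so ATF4 mRNA is not a measure of ATF4 protein. ATF4, paired with partners of the C/EBP family, binds C/EBP-ATF response elements and raises genes for amino acid synthesis, uptake and tRNA charging. The tRNA synthetases join each amino acid to its tRNA. Other stresses that act through eIF2, such as unfolded protein in the endoplasmic reticulum, feed into the same programme.

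Most of the gene set was lower in suspended cells, by small steps. Of the 41 tested genes, 26 fell, 4 rose and 11 did not pass the test, which was limma with p adjusted over all 18417 genes at a threshold of 0.05. Across all genes tested 10.2% fell and 10.4% rose, and 20.6% were called in either direction, against 73.2% of the gene set. Among the 9208 genes with a mean signal above the median gene, 33.5% were called and 18.0% fell. The median log2 difference of the gene set, suspended minus attached, was −0.22, a 1.17-fold lower signal, beside 0.02 over all genes. The largest change was a 1.57-fold lower signal (PSAT1), so no gene of the set changed 2-fold. The 4 that rose were DDIT4, CEBPB, CTH and WARS1, each of a different role. On scaling, 50.4% of all calls were higher in suspension with no further scaling, and 35.2% when arrays were centred on the median of the tested genes. With that centring 31 genes of the set fell and 4 rose, beside 13.4% and 7.28% of all genes.

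**Figure D1:**
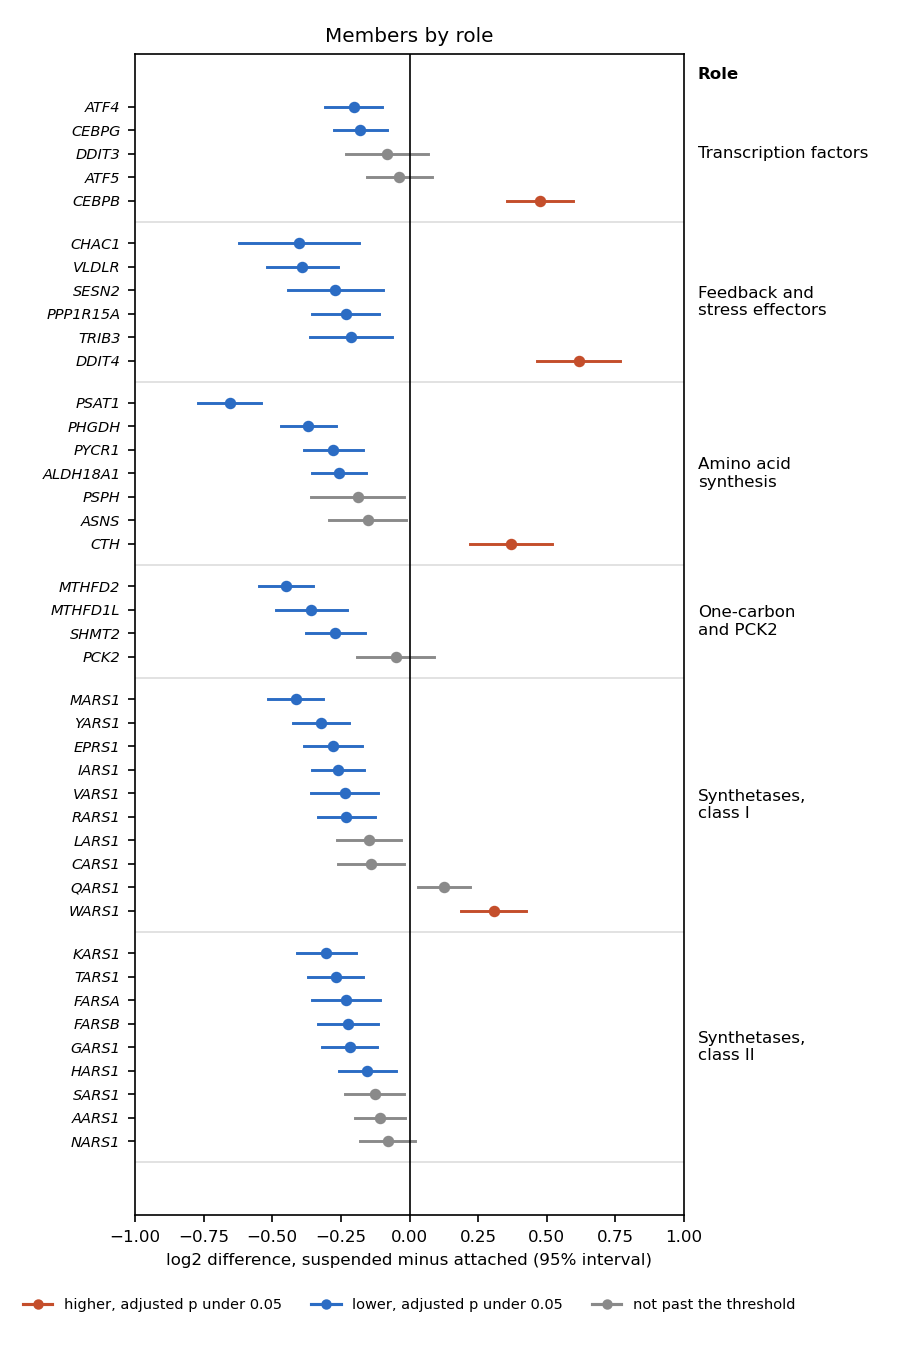
Log2 difference, suspended minus attached, of the 41 genes (points) with 95% intervals from limma, ordered within each role, n = 4 arrays per group. Blue marks the 26 genes that fell, red the 4 that rose and grey the 11 not past the threshold.

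Suspended and attached arrays did not overlap for 31 of the genes, 26 of them lower in suspension and 5 higher. Over all genes the groups did not overlap for 24.8%, with 12.2% lower and 12.7% higher. Each array can be read as the median, over the 41 genes, of its distance from the attached mean. The suspended arrays lay at −0.25, −0.21, −0.20 and −0.22, against −0.01, 0.00, 0.04 and −0.02 for the attached arrays. Every suspended array was therefore below every attached array. The same median over all genes tested ran from −0.004 to 0.035 on suspended arrays and from −0.009 to 0.013 on attached arrays.

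**Figure D2:**
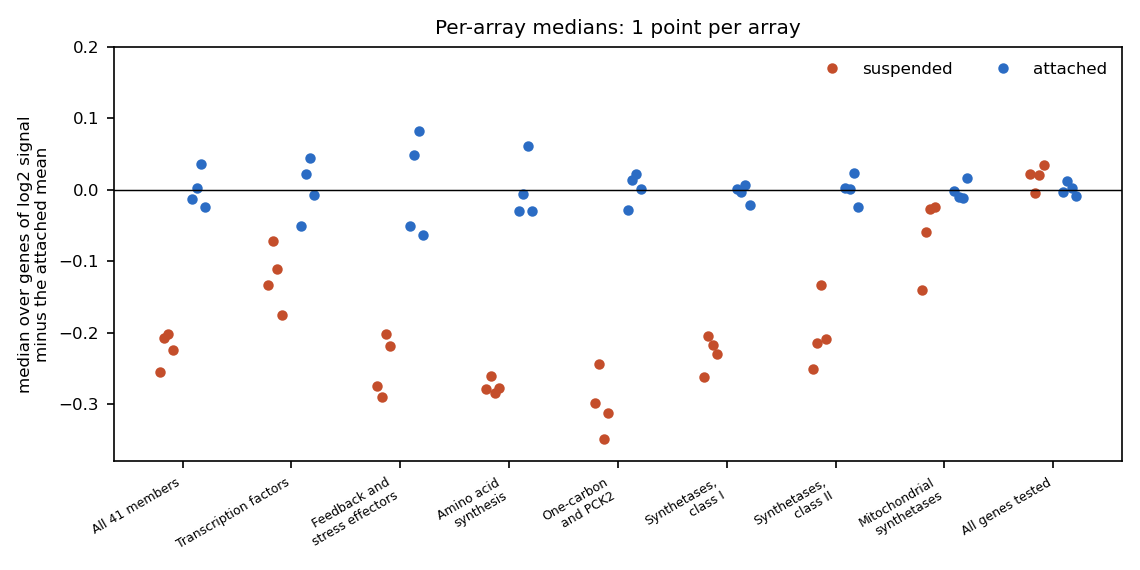
Median over the genes of each role of the log2 signal minus that gene's attached mean, 1 point per array, suspended left of attached. Attached points lie near 0 by construction, and for the whole gene set the suspended points lie between −0.25 and −0.20.

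The promoters of the set were searched for the element through which ATF4 acts. Many genes of the set are described as ATF4 targets, so the share with a match is not independent of how they were chosen. The core of the C/EBP-ATF response element, TGATGNAA, was searched on both strands (TTNCATCA on the other) in RefSeq windows of 250 bases before to 50 after each annotated start, build GRCh38.p14. Of the 41 genes 35 had a window, and 11 of these (31.4%) held a match. The share was 4.46% of the 27305 genes in the promoter table and 3.59% of the 14239 tested genes with a window. Genes can have several windows. Counted by window, 13 of the 52 windows of the set and 1270 of all 35116 (3.62%) held a match. PSPH, SHMT2, PYCR1, LARS1, VARS1 and YARS1 had no window. The matches are shown because they have the letters of this core, and whether ATF4 acts at them was not measured. Each has 11 bases on either side, 5′ to 3′ on the gene's own strand, with the match in capitals.
MARS1 (chr12:57488053-57488082, plus strand): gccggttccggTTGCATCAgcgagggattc
CHAC1 (chr15:40953251-40953280, plus strand): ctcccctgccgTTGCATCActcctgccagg
MTHFD1L (chr6:150866346-150866375, plus strand): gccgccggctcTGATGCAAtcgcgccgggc
TARS1 (chr5:33440956-33440985, plus strand): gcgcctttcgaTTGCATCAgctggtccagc
IARS1 (chr9:92293692-92293721, minus strand): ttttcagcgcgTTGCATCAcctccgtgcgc
GARS1 (chr7:30594834-30594863, plus strand): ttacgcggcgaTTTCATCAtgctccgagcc
CEBPG (chr19:33374060-33374089, plus strand): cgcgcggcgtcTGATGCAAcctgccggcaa
ASNS (chr7:97872458-97872487, minus strand): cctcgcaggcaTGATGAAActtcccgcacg
CARS1 (chr11:3057407-3057436, minus strand): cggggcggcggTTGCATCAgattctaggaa
AARS1 (chr16:70289675-70289704, minus strand): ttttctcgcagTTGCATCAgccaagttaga
NARS1 (chr18:57621804-57621833, minus strand): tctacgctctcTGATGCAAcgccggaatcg

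The first 7 of these genes fell in suspension and the last 4 did not pass the test. Counting the annotated start as base 0, the match begins at base −209 in CHAC1, at −187 in AARS1 and at −129 from one of the starts of MTHFD1L. In the synthetase genes CARS1, IARS1, MARS1 and TARS1 it begins between bases −13 and 2, in GARS1 at −33 and in NARS1 at 14. In CEBPG it begins at −42 and in ASNS at −68. CARS1 and TARS1 have several annotated starts, and their match lies in the window of 1 of them. The matches of ASNS, GARS1 and CEBPG lie upstream of a start yet inside the gene's annotated span, so these genes also have other starts. The core read TGATGCAA, on one strand or the other, in all but ASNS and GARS1, where it read TGATGAAA. Of the 22 genes with a window that fell, 7 held a match (31.8%), as did 4 of 9 that were not called and 0 of the 4 that rose. A match is a run of letters and not a measured binding site, and its absence from these windows says nothing of sites elsewhere.

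Among the transcription factors, ATF4, CEBPG and CEBPB changed, in different directions. ATF4 had log2 signals of 8.75, 8.76, 8.64 and 8.69 on the suspended arrays, against 8.86, 8.92, 8.96 and 8.91 on the attached arrays. It was lower on every suspended array, by 1.15-fold (log2 −0.20, SE 0.047, limma adjusted p = 0.00979; probe set 8180337). Its dimmer probe set differed by −0.14, which did not pass when p was adjusted across probe sets (0.165). CEBPG, a dimerisation partner of ATF4, gave 7.43, 7.41, 7.40 and 7.42 suspended, against 7.62, 7.63, 7.58 and 7.54 attached. Its groups did not overlap either (log2 −0.18, SE 0.044, adjusted p = 0.013). CEBPB, a C/EBP factor that is also induced by inflammatory and growth signals, went the other way. Its signals were 9.44, 9.54, 9.52 and 9.66 in suspended cells, against 9.01, 9.09, 9.11 and 9.05 in attached cells, a 1.39-fold rise (log2 0.48, SE 0.055, adjusted p = 9.62e-05). DDIT3, which encodes the stress factor CHOP, differed by −0.08 (95% interval −0.23 to 0.07), and ATF5, a factor related to ATF4, by −0.04 (−0.15 to 0.08). Both had overlapping groups and adjusted p of 0.45 and 0.679.

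**Figure D3:**
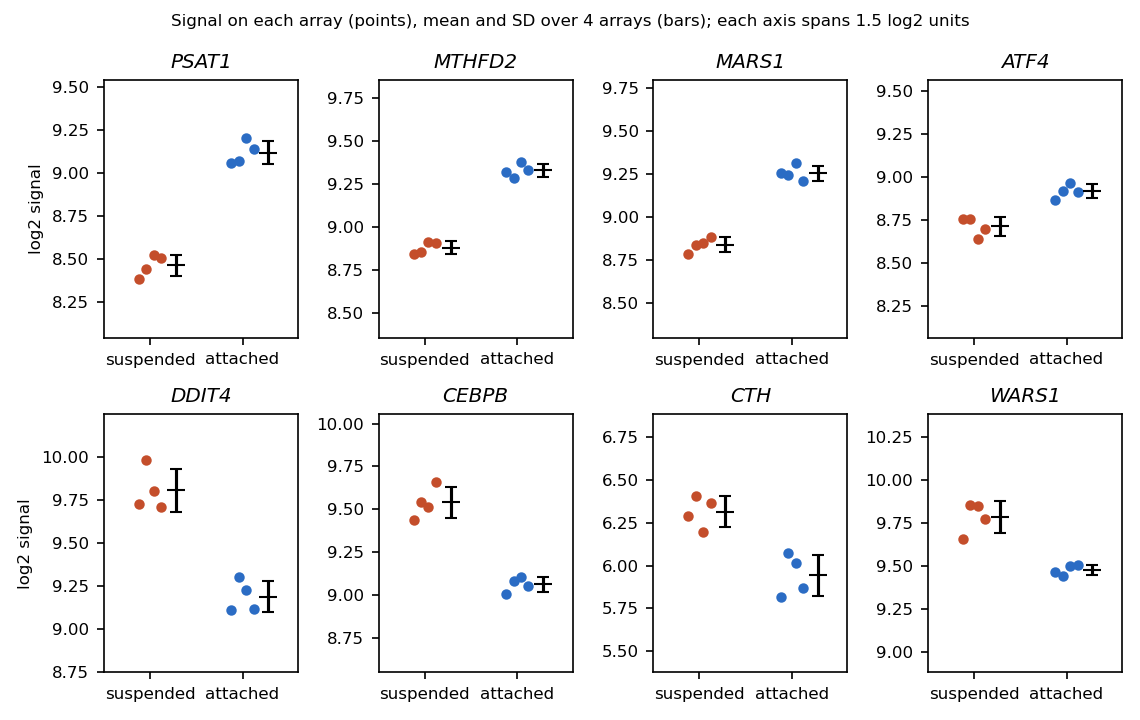
Log2 signal of 8 genes on each array (points), with the mean and SD over 4 arrays per group beside them, suspended left of attached, each vertical axis spanning 1.5 log2 units. PSAT1, MTHFD2, MARS1 and ATF4 are lower on every suspended array, and DDIT4, CEBPB, CTH and WARS1 are higher on every suspended array.

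Of the 6 feedback and stress effectors downstream of ATF4, 5 fell and DDIT4 rose. Across all genes 10.2% fell and 10.4% rose, and 18.0% of genes above the median signal fell. With 1 array left out in turn, the falls among the 6 numbered 3 to 5. DDIT4 encodes REDD1, an inhibitor of the growth kinase complex mTORC1. It had 9.73, 9.98, 9.81 and 9.71 on suspended arrays, against 9.11, 9.30, 9.23 and 9.12 on attached arrays. That is a 1.53-fold rise with groups well apart (log2 0.62, SE 0.069, adjusted p = 7.61e-05). SESN2, another inhibitor of mTORC1 and a sensor of leucine, fell (−0.27, SE 0.078, adjusted p = 0.0308). CHAC1, an enzyme that breaks down glutathione, had the largest SE of the set. Its signals were 6.37, 6.03, 5.93 and 6.18 suspended, against 6.50, 6.69, 6.60 and 6.32 attached. Suspended replicate 1 lay above attached replicate 4, so the groups overlapped, and the fall was 1.32-fold (log2 −0.40, SE 0.099, adjusted p = 0.0134). VLDLR, a lipoprotein receptor, gave 6.42, 6.58, 6.43 and 6.63 in suspended cells, against 6.96, 6.88, 6.92 and 6.85 in attached cells (log2 −0.39, SE 0.058, adjusted p = 0.000616). PPP1R15A, which brings a phosphatase to eIF2 and so ends the response, fell by 0.23 (SE 0.055, adjusted p = 0.0113). TRIB3, a pseudokinase that restrains ATF4, was only just past the threshold (−0.21, adjusted p = 0.0469), with overlapping groups. With 1 array left out in turn, TRIB3 kept its call in 1 of 8 refits, the one without suspended replicate 3 (−0.27 to −0.17 over the refits). SESN2 kept its call in 5 of 8 and lost it without suspended replicate 1 or attached replicate 2 or 3 (−0.32 to −0.21).

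Serine synthesis held the furthest fall of the set. PSAT1, the transaminase of the pathway's middle step, had 8.39, 8.44, 8.52 and 8.51 in suspended cells, against 9.06, 9.07, 9.20 and 9.14 in attached cells. The groups were far apart beside their SDs of 0.062 and 0.067 (log2 −0.65, SE 0.052, adjusted p = 6.24e-06). PHGDH, which commits a glycolytic intermediate to serine, had 8.65, 8.63, 8.55 and 8.66 suspended, against 9.04, 8.99, 8.98 and 8.96 attached, and was 1.29-fold lower (log2 −0.37, SE 0.046, adjusted p = 0.000164). PSPH, the phosphatase of the last step, differed in the same direction without passing the test (−0.19, 95% interval −0.36 to −0.02, adjusted p = 0.11). Its suspended arrays spread from 7.56 to 7.95 and reached into the attached range of 7.87 to 8.02. Its other probe set gave −0.22, also not past the test.

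Proline synthesis from glutamate fell at both measured steps. ALDH18A1, which makes the pathway's semialdehyde, averaged 8.50 ± 0.04 suspended and 8.76 ± 0.04 attached (mean log2 ± SD, n = 4 per group; difference −0.26, limma adjusted p = 0.00178). PYCR1, the mitochondrial reductase that completes proline, averaged 7.63 ± 0.01 suspended and 7.91 ± 0.08 attached (difference −0.28, limma adjusted p = 0.00198). Neither pair of groups overlapped. ASNS, the asparagine synthetase and a classic target of ATF4, had 7.42, 7.30, 7.15 and 7.27 suspended, against 7.51, 7.36, 7.50 and 7.38 attached. Its groups overlapped and it did not pass the test (−0.15, 95% interval −0.29 to −0.01, adjusted p = 0.125). CTH, which releases cysteine in the last step of transsulfuration, was the only gene of this role to rise. It had 6.29, 6.40, 6.20 and 6.36 in suspended cells, against 5.82, 6.07, 6.01 and 5.87 in attached cells, a 1.29-fold higher signal (log2 0.37, SE 0.068, adjusted p = 0.00246).

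The 3 mitochondrial folate enzymes of the set, which take carbon units from serine, fell. MTHFD2, a dehydrogenase and cyclohydrolase of this route, had 8.84, 8.86, 8.92 and 8.91 suspended, against 9.32, 9.28, 9.38 and 9.33 attached. The groups were far apart (log2 −0.45, SE 0.045, adjusted p = 3.31e-05), and its other probe set gave −0.44. MTHFD2L, listed outside the set among the neighbouring enzymes, stood at 7.62 in both groups (log2 −0.0002, limma adjusted p = 0.998). MTHFD1L, which releases the carbon unit as formate, fell by 0.36 (SE 0.059, adjusted p = 0.00123), with 7.88 to 8.13 suspended and 8.34 to 8.45 attached. SHMT2, which splits serine into glycine and a carbon unit, fell by 0.27 (SE 0.049, adjusted p = 0.00224), with 9.42 to 9.49 suspended and 9.64 to 9.79 attached. PCK2, the mitochondrial form of phosphoenolpyruvate carboxykinase, differed by −0.05 (95% interval −0.19 to 0.09, adjusted p = 0.635), with overlapping groups.

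Of the 19 genes for cytosolic tRNA synthetases, 12 fell, 1 rose and 6 did not pass the test. Their median log2 difference was −0.22, as it was for the 22 other genes of the set. Of the 19, 63.2% fell and 68.4% were called, against 10.2% and 20.6% of all genes. Among genes above the median signal the shares were 18.0% and 33.5%. The same shares of all genes stand beside the smaller groupings that follow. Synthetases come in a pair of unrelated structural classes. In class I 6 of 10 fell and 1 rose (median −0.23), and in class II 6 of 9 fell and 0 rose (median −0.22). EPRS1, an enzyme for both glutamate and proline, was counted in class I alone. Of 7 listed that ride in the multi-synthetase complex, a large assembly of charging enzymes, 5 fell (EPRS1, IARS1, KARS1, MARS1 and RARS1), while LARS1 and QARS1 did not pass the test. Of 13 synthetases widely described as induced by ATF4, 7 fell and 1 rose (median −0.22), and of the other 6, 5 fell and 0 rose (median −0.23).

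The methionine enzyme MARS1 fell furthest among the synthetases. It had 8.78, 8.84, 8.85 and 8.88 on suspended arrays, against 9.25, 9.24, 9.31 and 9.21 on attached arrays, a 1.33-fold lower signal (log2 −0.42, SE 0.046, adjusted p = 7.20e-05). YARS1, for tyrosine, had 9.36, 9.46, 9.43 and 9.41 suspended, against 9.78, 9.68, 9.71 and 9.77 attached (log2 −0.32, adjusted p = 0.000486). KARS1, the lysine enzyme of both cytosol and mitochondria, fell by 0.30 (adjusted p = 0.00109), and EPRS1, which charges both glutamate and proline, by 0.28 (adjusted p = 0.00166). TARS1, IARS1, VARS1, FARSA, RARS1, FARSB and GARS1 fell by 0.27 to 0.22, with adjusted p from 0.00123 for IARS1 to 0.012 for FARSA. FARSA and FARSB, the subunits of the phenylalanine enzyme, differed by −0.23 and −0.22, and FARSA was not called after quantile normalization (−0.18, adjusted p = 0.0681). None of the 7 had overlapping groups. HARS1, for histidine, was close to the threshold (−0.15, adjusted p = 0.0392). It kept its call in 2 of 8 refits, those without suspended replicate 3 or attached replicate 4 (−0.18 to −0.14 over the refits).

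WARS1, the tryptophan enzyme, was the synthetase that rose. It had 9.66, 9.85, 9.85 and 9.78 in suspended cells, against 9.47, 9.44, 9.50 and 9.51 in attached cells, so every suspended array was higher (1.24-fold, log2 0.31, SE 0.053, adjusted p = 0.00171). WARS1 is known to be induced by interferon gamma as well as by ATF4. QARS1, the glutamine enzyme, was also higher on every suspended array, with 10.32, 10.34, 10.36 and 10.41, against 10.24, 10.25, 10.22 and 10.22 attached, but did not pass the test (0.13, 95% interval 0.03 to 0.22, adjusted p = 0.0617). AARS1 and SARS1, for alanine and serine, had lower suspended arrays without overlap and did not pass either (−0.11 and −0.13, adjusted p = 0.0995 and 0.0975). CARS1, LARS1 and NARS1 differed by −0.14, −0.15 and −0.08, with overlapping groups and adjusted p of 0.0992, 0.0712 and 0.264. The 95% interval of NARS1, the asparagine enzyme, ran from −0.18 to 0.02. Of these 6 uncalled synthetases, all but NARS1 had an unadjusted p below 0.05.

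Apart from genes that serve both compartments, such as KARS1, counted above as cytosolic, most mitochondrial synthetases are encoded by separate genes. These separate genes are the closest set to compare with. Of 16 tested, 4 fell and 0 rose, with a median log2 difference of −0.06. Of all genes 10.2% fell, and 18.0% of those above the median signal. The falls were CARS2 (8.22 ± 0.02 suspended and 8.52 ± 0.02 attached, difference −0.30, limma adjusted p = 0.000371), NARS2 (−0.26), YARS2 (−0.28) and LARS2 (−0.20). Paired by amino acid, the cytosolic enzyme had the more negative difference in 13 of 17 pairings, in which EPRS1 and FARS2 each count in a pair of them. The 13 include AARS1 and AARS2, which were nearly level (−0.1077 and −0.1071). The exceptions were WARS1 and 3 of the amino acids whose mitochondrial enzyme fell, cysteine, leucine and asparagine. Only YARS1 and YARS2 both fell. Where the cytosolic enzyme fell and the mitochondrial one was not called, as in 10 pairings, a difference between them is not shown by that alone, and it was not tested.

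**Figure D4:**
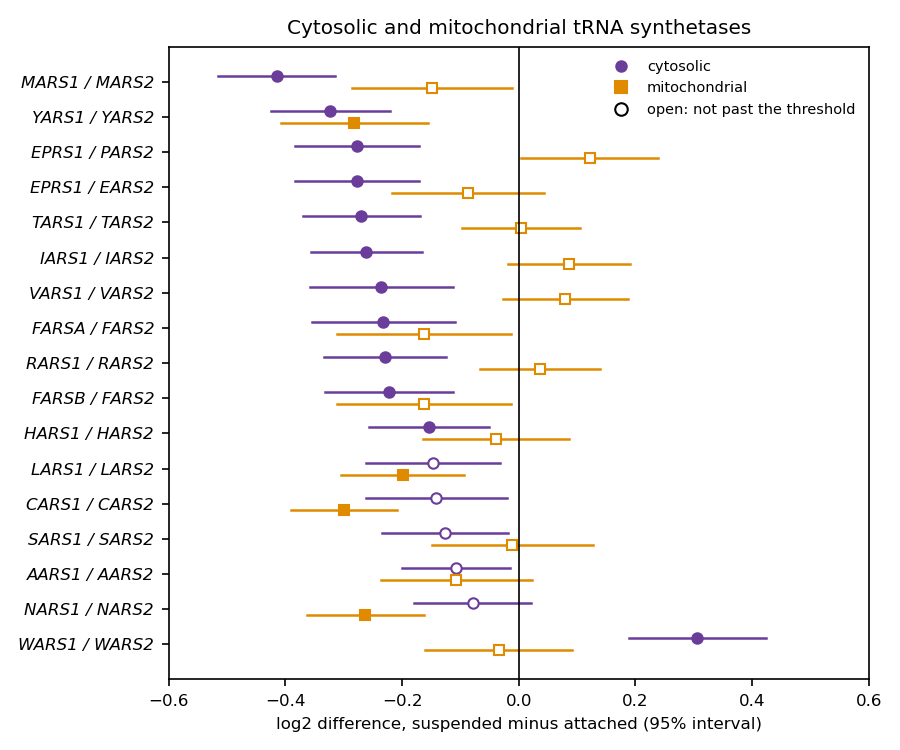
Log2 difference, suspended minus attached, of cytosolic (circles, upper) and mitochondrial (squares, lower) synthetases of the same amino acid, with 95% intervals from limma and open symbols for genes not past the threshold. The cytosolic symbol lies left of the mitochondrial one in 13 of 17 pairings, though AARS1 and AARS2 are nearly level.

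Genes around the set moved less in 1 direction. Of 15 tested eIF2 kinases, subunits and regulators, 3 fell (EIF2B3 −0.34, GCN1 −0.19 and EIF2AK2 −0.20) and EIF2AK1, a kinase of eIF2 that responds to haem shortage, rose (0.15). Their median was −0.07, and the share called, 26.7%, is near the 20.6% of all genes and below the 33.5% of genes above the median signal. Without attached replicate 3 only 1 fell. EIF2B3 is a subunit of the exchange factor that eIF2 needs, and GCN1 is the partner through which GCN2 is activated. AIMP1, a scaffold of the multi-synthetase complex, differed by −0.07 (adjusted p = 0.332). Among 20 other known targets of ATF4, 6 rose and 7 fell, with a median of 0.05. Of these genes 65.0% were called and 35.0% fell, against 20.6% and 10.2% of all genes. Among genes above the median signal the shares were 33.5% and 18.0%. With 1 array left out in turn the rises numbered 3 to 5, with 3 without suspended replicate 4 or attached replicate 4. The falls numbered 4 to 7, with 4 without suspended replicate 3 or attached replicate 2, 3 or 4. The 3 with the smallest adjusted p all rose, namely the stress cytokine GDF15 (9.19 ± 0.05 suspended and 8.28 ± 0.06 attached, difference 0.91), KLHL24 (0.83) and the glutamine transporter SLC38A2 (0.41). Those ranked 4 to 7 by adjusted p all fell, namely SLC7A5 (−0.35), EIF4EBP1 (−0.35), XPOT (−0.24) and SLC1A5 (−0.18). A total of 15 enzymes next to the set in amino acid and folate metabolism gave 4 falls and 2 rises. The share called, 40.0%, lies above the 20.6% of all genes and the 33.5% of genes above the median signal. BCAT1, the cytosolic transaminase of branched-chain amino acids, had 7.53 ± 0.05 suspended and 8.19 ± 0.11 attached (−0.67, limma adjusted p = 1.52e-05). The aspartate transaminases GOT2 and GOT1 (−0.31 and −0.35) and the thymidylate synthase TYMS (−0.32) fell as well, while the glutamine synthetase GLUL (0.44) and MAT2A (0.15), which makes S-adenosylmethionine, rose. In the arms of the unfolded protein response outside ATF4, XBP1 (−0.31) and ATF6 (−0.21), both transcription factors, fell and SEL1L (0.22) and DNAJB9 (0.16) rose, out of 13, with a median of 0.00. The share called there, 30.8%, lies between those of all genes and of genes above the median signal, as for the eIF2 list. Several of the smaller changes around the set lost their call when an array was left out. With 1 array left out in turn, EIF2AK1 kept its call in 1 of 8 refits (without suspended replicate 1), EIF2AK2 in 1 (without suspended replicate 3), SEL1L in 1 (without suspended replicate 4), MAT2A in 2 (without suspended replicate 1 or 3) and DNAJB9 in 0, and GCN1 lost its call without attached replicate 3. The other called genes named in these lists kept theirs in all 8. LARS2, EIF2AK1, GOT1, GLUL, MAT2A and DNAJB9 were named after their values were seen, to complete small counts. SLC7A5, EIF4EBP1, XPOT and SLC1A5 were also named after their values were seen, to show falls beside the rises of their list. MTHFD2L was likewise named after its value was seen, to stand beside MTHFD2.

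**Figure D5:**
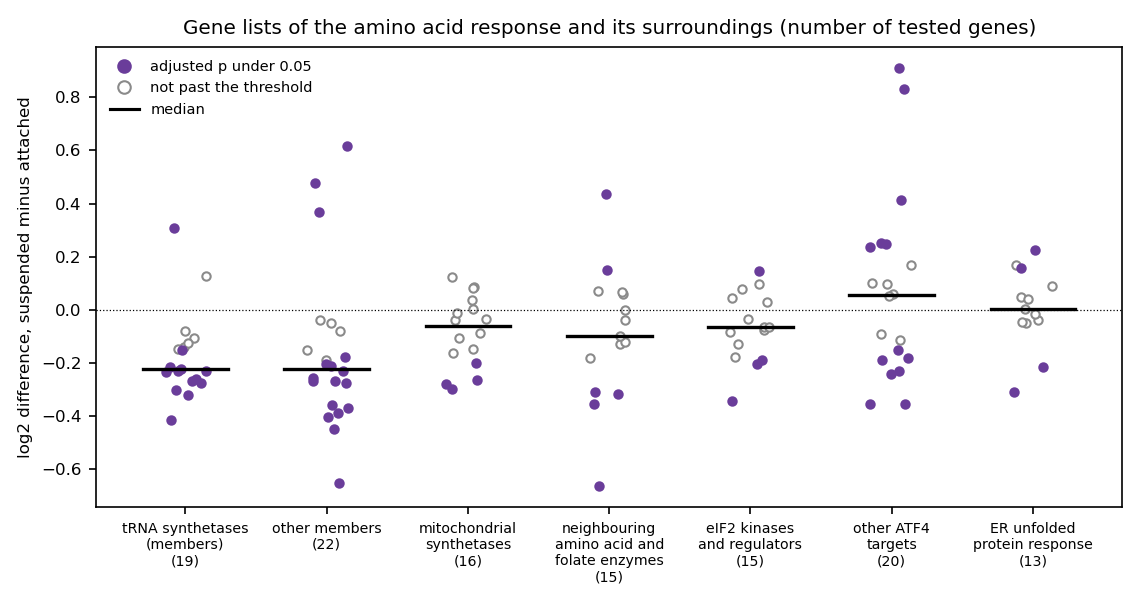
Log2 difference, suspended minus attached, of each tested gene in the set and in the lists around it, with filled points past adjusted p of 0.05 and a bar at each list's median. The medians are −0.22 for the synthetases and for the other genes of the set, −0.06 for mitochondrial synthetases and 0.05 for other ATF4 targets.

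As to the arrays themselves, medians lay between 6.02 and 6.07, and arrays correlated at r of 0.993 to 0.996 within the suspended group, 0.995 to 0.996 within the attached group and 0.987 to 0.994 between the groups. Arrays have no read depth, and 4 against 4 limits the precision. Of 4 mesenchymal markers, typical of BT549, VIM had 11.66 suspended and 11.73 attached and FN1 10.87 and 10.79, without passing the test, while SPARC rose (11.55 suspended, 11.17 attached) and CDH2 fell (8.56 suspended, 8.94 attached). The oestrogen and progesterone receptor genes ESR1 and PGR had 5.11 and 4.31 suspended and 5.04 and 4.19 attached, below the 25th percentile of gene means, 5.28. ERBB2, low in triple-negative tumours, lay above that percentile, with 7.53 suspended and 7.48 attached, and none of the 3 receptor genes passed the test. Of 4 epithelial markers, CDH1 lay below that percentile, with 4.26 suspended and 4.19 attached. EPCAM (5.35 suspended, 5.47 attached), KRT18 (8.13 and 8.16) and KRT19 (6.75 and 6.57) lay above it. None of the 4 passed the test. Of 7 markers of leukocytes, endothelium and fat, only CD68, a lysosomal protein, changed (8.03 suspended, 8.42 attached), and it lay above that percentile. PTPRC (3.94 in both groups), CD3E (4.73 suspended, 4.64 attached) and PECAM1 (4.73 in both groups) lay below it. CDH5 (5.48 in both groups), ADIPOQ (5.78 suspended, 5.68 attached) and PLIN1 (5.90 suspended, 5.76 attached) lay above it. In bulk RNA, a change in all cells cannot be told apart from a shift in the share of cells in a given state.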

How the data were processed

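The authors deposited 1 table of log2 signals, 33297 probe sets by 8 arrays. The log2 scale was inferred from the values. Partek was used, per the submitters' processing notes; its version and how background, normalization and summarisation were handled are not stated there. Per the labels' protocols, 1 µg of total RNA per sample was labelled with biotin. The kit they name is one for small RNA, and how RNA was labelled for these gene-level arrays could not be settled. No normalization was added. The platform annotation named the probe sets: 19460 had 1 symbol, 1754 several and 12083 none. The brightest probe set stood for a gene with several (769 genes), leaving 18417. Of the 41 genes of the set, 37 had 1 probe set and 4 had 2, and all 41 matched RefSeq (GRCh38.p14) by gene ID and symbol. Both VARS1 probe sets hold the same values.

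The comparison used limma 3.58.1 under R 4.3.3 (functions lmFit and eBayes, two-sided, without covariates), with Benjamini-Hochberg adjustment over all genes and a threshold of 0.05. SE is the moderated standard error and SD is over 4 arrays. Tested on simulated data with 18417 genes and 4 arrays per group, this recovered 63% of 100 genes changed 1.25-fold and 99% of 100 changed 2-fold, with 10 unchanged genes called. Far fewer genes were changed there than the 3787 called in the data. The adjusted threshold was therefore stricter in the simulation, and its shares do not give the power in the data. The genes and lists were chosen with earlier results of these data known, so counts over them are descriptions. Named genes are every gene of the set with a probe set and, from each list around it, the 3 with the smallest adjusted p. Tables and figures used Python 3.11.15, pandas 2.3.3 and matplotlib 3.10.9. Alternatives were a replicate block, quantile normalization, median centring, a filter on low signal, the mean of probe sets, array weights, a trended robust variance and leaving out each array.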

Additional observations from a re-analysis of the deposited data

Results flagged for a closer look

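Of 82 groups of 4 arrays (41 genes in both conditions), 3 held an array whose gap to its nearest neighbour was a larger part of the group's range than Dixon's 95% critical value for 4 samples allows; chance alone flags about 1 in 20. SHMT2 on suspended replicate 2 stood at 9.49, with the other suspended arrays at 9.42 to 9.43, and this array was the nearest to the attached values. TARS1 on suspended replicate 4 stood at 8.38, with the others at 8.48 to 8.49, and TARS1 on attached replicate 2 at 8.69, with the others at 8.73 to 8.74. Both genes kept their call when any 1 array was left out.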

How the results depend on the processing

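No gene of the set changed sign under any alternative, and 26 of the 30 called genes kept their call under all of them; the exceptions were TRIB3, SESN2, HARS1 and FARSA. FARSA lost its call with quantile normalization and HARS1 with quantile normalization and with the replicate block. The count that fell, 26, was 24 with quantile normalization, 25 with the replicate block, 27 with median centring over all probe sets, 27 with only genes above the 25th percentile of signal, 26 with the mean of probe sets or array weights, 29 with a trended robust variance and 23 to 27 with 1 array left out. The count that rose, 4, was 4 or 5 throughout. Centring on the median of tested genes, an alternative chosen after seeing the data, gave 31 falls, adding ASNS, AARS1, CARS1, LARS1 and SARS1. The median of the set, −0.22, became −0.18 with quantile normalization and −0.27 with that centring, whose construction moves all genes by −0.05. Over all genes 3787 were called, 2934 to 3752 with 1 array left out and 3022 with the replicate block. The labels share replicate numbers without stating a pairing, and deviations of same-numbered arrays from their group means correlated at −0.20 to 0.04, so the numbers were not taken as pairs. Precision is limited by 4 arrays per group and by the lack of a background measure, so folds are ratios of signals.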

Other observations

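The response element core was also looked at outside the gene set. Of all 511 tested genes with a match in a promoter window, 64 fell (12.5%) and 54 rose, with a median log2 difference of 0.00. Of 13728 tested genes with a window and no match, 1440 fell (10.5%) and 1515 rose, with a median of 0.02. Within the set, 7 of 11 genes with a match fell (63.6%) and 15 of 24 with a window and no match (62.5%), with a median of −0.22 for each. Whether these shares differ was not tested.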
